A study of Mus musculus with 17 samples.

Results

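The genes described here are the 3 D-type cyclins (Ccnd1, Ccnd2, Ccnd3), their 2 catalytic partners (Cdk4, Cdk6) and 4 inhibitors of these kinases (Cdkn1b, Cdkn2a, Cdkn2b, Cdkn2c) in mouse fibroblasts and extraembryonic endoderm lines. They were found by symbol, and all 9 were among the 24015 genes listed in each of the 17 libraries. Ccnd1 was picked because its level differed between iXEN and XEN cells, so its values are given as a description with no test, and no gene of the 9 was tested between iXEN and XEN cells. All cells were of the CD-1 background. The 3 libraries of mouse embryonic fibroblasts (MEF) came from cells grown for 3 passages in a medium of their own, MEF medium. XEN cells (stem cell lines of the extraembryonic endoderm) and iXEN cells (induced lines of the same kind) both had 10 passages in ESC medium, followed by 5 in either that medium or XEN medium. XEN cells gave 3 libraries in each medium, numbered 1, 2 and 7, and iXEN cells gave 4, numbered 1, 2, 6 and 9. The series' title names OSKM, the reprogramming factors Pou5f1, Sox2, Klf4 and Myc, as the inducers of iXEN cells. The sources used here do not say how the factors were delivered, or whether a number stands for a single clone.

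A D-type cyclin binds CDK4 or CDK6, and the complex phosphorylates the retinoblastoma protein RB, which frees E2F transcription factors to turn on genes of DNA replication. Growth factors act on this step largely through cyclin D1. Proteins of the INK4 family (p16 from Cdkn2a, p15 from Cdkn2b, p18 from Cdkn2c) bind CDK4 and CDK6 and block them, while p27 (Cdkn1b) acts mainly on the later CDK2 complexes. The Cdkn2a locus also encodes ARF, which stabilises p53, and it is known to be silent in early embryonic cells and to be switched on as fibroblasts are cultured.

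Each library held 20071567 to 45914262 counts in genes. CPM below are counts scaled to the reads in genes of each library and by TMM factors. Summed over 8 XEN markers, the 14 XEN and iXEN libraries held 5044 to 82513 CPM and MEF 1008 to 1464 CPM. Single markers could depart from the sum, as Col4a1 was at 6.15 CPM in XEN 1 in XEN medium and at 751 to 1255 CPM in MEF. Several libraries stood apart from their group. Summed over 8 fibroblast markers, MEF held 36214 to 49294 CPM, XEN 1 in ESC medium 7825 CPM, iXEN 2 and iXEN 9 in XEN medium 2110 and 986 CPM, XEN 2 in ESC medium 334 CPM, and the other 10 XEN and iXEN libraries 0.264 to 22.7 CPM. Meox2, a homeobox gene of fibroblasts, was at 25.2 to 34.6 CPM in MEF and at or near 0 in those 4 libraries. Thy1, Postn and Lum, at 124 CPM or more in MEF, were at 0 to 0.801 CPM in XEN 2 in ESC medium and iXEN 9 in XEN medium. The sums of these libraries came from Col1a1, Col1a2, Col3a1 and Lox. Below, libraries with fibroblast transcripts are named so by the sum alone. XEN 7 held only 0.476 and 0.822 CPM of the endoderm factor Sox7 in ESC and XEN medium, and its XEN marker sums, 5044 and 9558 CPM, were the lowest of its groups. It also held 93.2 and 183 CPM of Pecam1, which was at most at 7.53 CPM in the other libraries. iXEN 9 in XEN medium held 60.2 CPM of Pou5f1 and 49.7 CPM of Sox2. MEF also held transcripts of macrophages, with 29.4 to 102 CPM over 7 markers. In these bulk libraries, fewer cells of a type and less RNA per cell cannot be told apart.

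**Figure D1:**
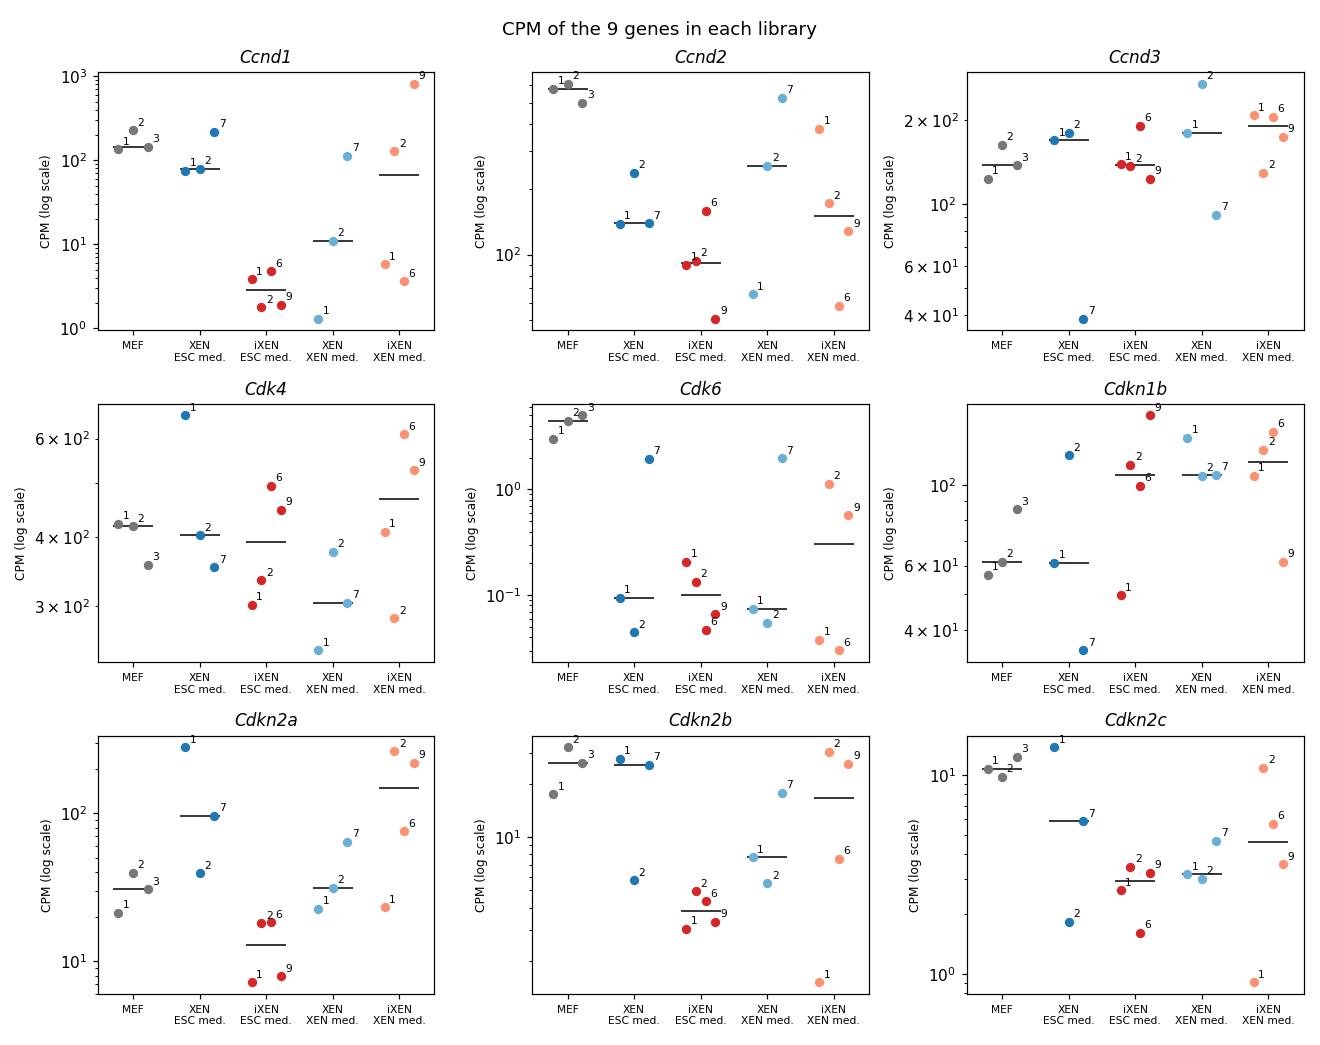
CPM of each of the 9 genes (vertical axis, log scale) in each of the 17 libraries, by group; each point is a library with the number of its label, and the bar is the group's median. Ccnd1 lay below 5 CPM in all 4 iXEN libraries in ESC medium and reached 818 CPM in iXEN 9 in XEN medium.

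Cyclin D1 was the most variable of the 3 D cyclins. Ccnd1 was at 135, 228 and 146 CPM in MEF 1, 2 and 3. In ESC medium it was at 75.0, 79.1 and 219 CPM in XEN 1, 2 and 7, and at 3.83, 1.78, 4.81 and 1.91 CPM in iXEN 1, 2, 6 and 9. Every iXEN library in ESC medium lay below every MEF library and every XEN library in that medium. Ccnd1 was picked for a difference between iXEN and XEN cells, so nothing is read from its order between them. In XEN medium it was at 1.31, 11.1 and 114 CPM in XEN 1, 2 and 7, and at 5.81, 127, 3.64 and 818 CPM in iXEN 1, 2, 6 and 9. Here the ranges of the cell types overlapped, and the order of the group means was the opposite of that in ESC medium, at 239 CPM in iXEN and 42.0 CPM in XEN cells. iXEN 2 and iXEN 9 set that mean, while iXEN 1 and iXEN 6 were close to the range of the iXEN libraries in ESC medium.

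Ordered by their medians, the groups ran from MEF (146 CPM) through XEN in ESC medium (79.1), iXEN in XEN medium (66.6) and XEN in XEN medium (11.1) to iXEN in ESC medium (2.87). The ranges of each pair of neighbours in that order overlapped. Not overlapping were MEF with iXEN in ESC medium, MEF with XEN in XEN medium, and XEN with iXEN in ESC medium. Between iXEN and XEN in ESC medium the fitted log2 difference was -5.35, and 3 of the 8 genes that passed the filter on low counts did not overlap between these groups, Ccnd1, Cdkn2a and Cdkn2b, against 9.81% of all genes tested. Since Ccnd1 was chosen on this contrast, nothing is read from that count. In XEN medium the fitted log2 difference for Ccnd1 was 2.52, and 0 of the 9 genes were without overlap, against 4.42% of all genes tested. Without iXEN 9 it was 0.17, without XEN 7 it was 5.29, and without iXEN 2 and 9, the libraries there with fibroblast transcripts, it was -3.15.

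Libraries of the same number can be set side by side in the 2 media, although for iXEN cells it was not shown that a number names the same line in both. Ccnd1 was lower in XEN medium for each of the 3 XEN numbers, 57.3-fold for XEN 1, 7.15-fold for XEN 2 and 1.93-fold for XEN 7. Between iXEN libraries of the same number it was 428-fold higher in XEN medium for number 9, 71.7-fold higher for 2, 1.52-fold higher for 1 and 1.32-fold lower for 6. Of the 6 XEN and iXEN libraries with more than 70 CPM of Ccnd1, 4 were those with fibroblast transcripts, XEN 1 and 2 in ESC medium and iXEN 2 and 9 in XEN medium. The other 2 were of XEN 7, which, at 219 and 114 CPM of Ccnd1, held 1.0 and 6.26 CPM over the 8 fibroblast markers. The part of the fibroblast transcripts in the level of Ccnd1 was not tested beyond these values.

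**Figure D2:**
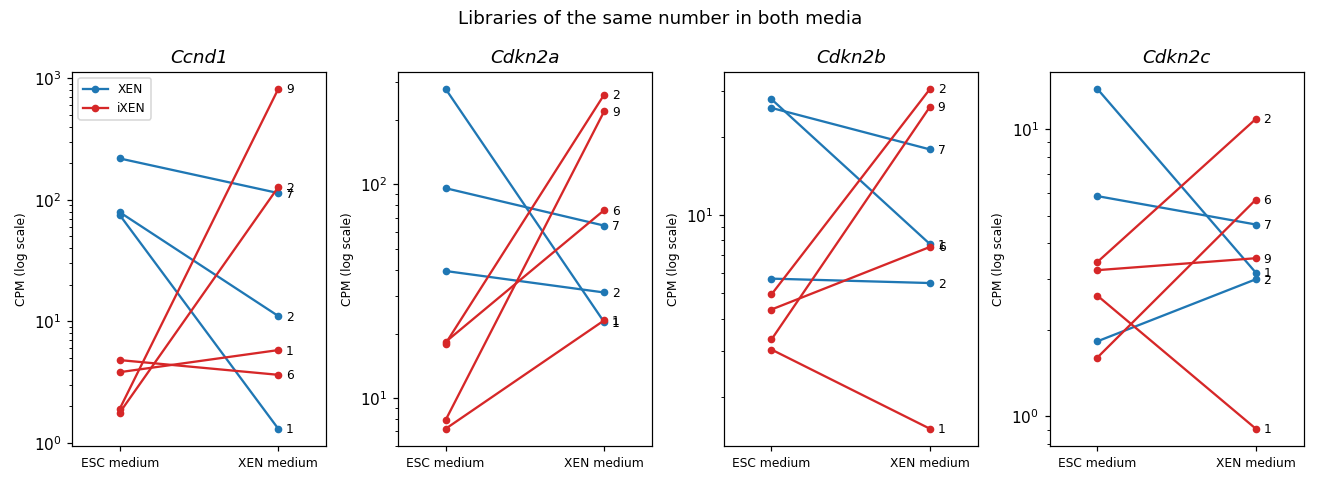
CPM (log scale) of Ccnd1, Cdkn2a, Cdkn2b and Cdkn2c in ESC medium and XEN medium, with a line joining libraries of the same number, for XEN and iXEN cells. For Cdkn2a all 3 XEN lines run down and all 4 iXEN lines run up.

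The genes whose levels followed Ccnd1 most closely over the 14 XEN and iXEN libraries were S100a4, a calcium-binding protein of motile mesenchymal cells (Pearson r = 0.970 of log2 CPM), Prkcdbp, a protein of caveolae (0.929), Igfbp3, a secreted carrier of insulin-like growth factors (0.924), Sorbs2, an adaptor of the actin skeleton (0.921), and Ifi202b, an interferon-inducible gene (0.917). They were the first 5 of 10150 genes ranked, the 14 libraries share lines and media, and the values are a description. S100a4 ran from 0.0741 to 941 CPM over these libraries, with a mean of 616 CPM in MEF. Among the members, Cdkn2a stood at rank 88 (r = 0.797) and Cdkn2b at rank 108 (0.776), while Ccnd3 had r = -0.369 and Cdkn1b -0.496.

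Cyclin D2 was highest in fibroblasts. Ccnd2 was at 578, 612 and 498 CPM in MEF, at 139, 238 and 139 CPM in XEN 1, 2 and 7 and at 89.6, 93.5, 159 and 50.8 CPM in iXEN 1, 2, 6 and 9 in ESC medium. Both endoderm groups in ESC medium lay wholly below MEF. It fell by 2.51 on the log2 scale in iXEN cells (SE 0.35, edgeR adjusted p = 0.000565), and 46.7% of all genes were called in this comparison. In XEN cells it fell by 1.70 (SE 0.32, edgeR adjusted p = 0.0155), with 25.0% of all genes called. The XEN call was lost without MEF 1, 2 or 3 (adjusted p = 0.0881, 0.0682 and 0.0735) and in a fit over all 17 libraries (0.0766), at log2 values of -1.54 to -1.71. In XEN medium Ccnd2 spread widely, at 65.6, 256 and 526 CPM in XEN 1, 2 and 7 and 379, 172, 58.3 and 128 CPM in iXEN 1, 2, 6 and 9. XEN 7 there reached the range of MEF, and the iXEN libraries stayed below it. The log2 fold change against MEF was -1.61 for iXEN (95% interval -2.88 to -0.34, edgeR adjusted p = 0.0567; 32.6% of all genes called) and -1.0 for XEN cells (-2.61 to 0.62, adjusted p = 0.255; 47.5% of all genes called). Ccnd2 was called lower in iXEN cells without iXEN 1 (-2.17, adjusted p = 0.0116) and by DESeq2 (0.0293), and in XEN cells without XEN 7 (-1.79, adjusted p = 0.0353).

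Cyclin D3 was at like levels in fibroblasts and in most of the endoderm lines. Ccnd3 was at 123 to 162 CPM in MEF (median 137) and at 123 to 190 CPM in iXEN cells in ESC medium (median 137). XEN 7 stood apart, at 38.8 CPM in ESC medium against 169 and 180 CPM in XEN 1 and 2, and at 91.1 CPM in XEN medium against 180 and 270 CPM. iXEN cells in XEN medium held 129 to 208 CPM. In none of the 4 comparisons with MEF did Ccnd3 pass the edgeR test, with log2 fold changes of -0.13 to 0.37. The widest 95% interval, for XEN cells in ESC medium, ran from -1.44 to 1.18. Without XEN 7 in XEN medium Ccnd3 was called higher than in MEF (0.68, adjusted p = 0.0480).

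Set per kb of exon, so that genes can be compared with each other, the mix of D cyclin transcripts differed between groups. In MEF, Ccnd2 made up 41.7% to 49.9% of the summed level of the 3 genes, Ccnd3 29.1% to 33.1% and Ccnd1 21.0% to 27.9%. In iXEN cells in ESC medium Ccnd3 made up 75.7% to 86.1% and Ccnd1 0.679% to 1.44%. Ccnd3 was also the largest part in XEN 1 and XEN 2 in both media (56.5% to 87.9%). Ccnd1 was the largest in XEN 7 in ESC medium (61.5%) and in iXEN 9 in XEN medium (70.8%), and Ccnd2 the largest in XEN 7 in XEN medium (53.7%). The summed level was 169 to 219 CPM per kb in MEF, 95.2 to 130 (XEN) and 58.2 to 103 (iXEN) on ESC medium, and 83.5 to 151 (XEN) and 93.5 to 309 (iXEN) on XEN medium. iXEN 9 in XEN medium lay above the range of MEF, and the other 13 XEN and iXEN libraries lay below it.

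**Figure D3:**
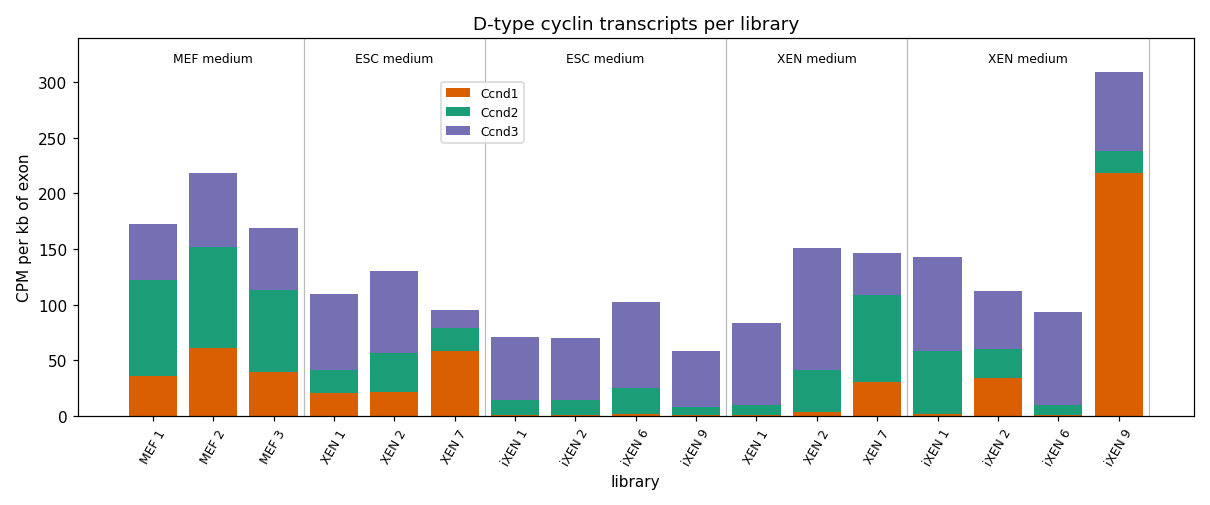
Stacked levels of Ccnd1, Ccnd2 and Ccnd3 in CPM per kb of exon (vertical axis, from 0) in each library, ordered by group. Ccnd3 makes up most of each bar of iXEN cells in ESC medium, and Ccnd1 most of that of iXEN 9 in XEN medium.

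Of the kinases, Cdk4 was evenly expressed and Cdk6 was nearly absent from the endoderm lines. Cdk4 was at 356 to 422 CPM in MEF, and the other groups spanned 250 to 660 CPM, with the highest value in XEN 1 and the next, 611 CPM, in iXEN 6. Its log2 fold changes against MEF were -0.37 to 0.24, with all 95% intervals within -0.89 to 1.0, and none was called. Cdk6 was at 3.01, 4.42 and 5.00 CPM in MEF. In 10 of the 14 endoderm libraries it had 1 to 6 reads. The other 4 were XEN 7 in ESC medium (1.96 CPM) and in XEN medium (1.97 CPM) and, in XEN medium, iXEN 2 (1.13 CPM) and iXEN 9 (0.567 CPM). All 14 lay below all 3 MEF libraries. In the comparisons with MEF, Cdk6 passed the filter on low counts through the MEF libraries, at 81 to 176 reads. Its tests there are therefore given as a description. Cdk6 fell by 5.11 in iXEN cells in ESC medium (SE 0.54, edgeR adjusted p = 0.000121). In XEN cells in ESC medium it was at -2.49 (adjusted p = 0.189), and without XEN 7 at -5.72 (adjusted p = 0.00377). In XEN medium it was at -2.56 in XEN cells (adjusted p = 0.150; without XEN 7 -5.91 and 0.000399). In iXEN cells there it was at -3.15 (adjusted p = 0.0680), which passed without iXEN 2 (-4.19 and 0.0285), without both iXEN 2 and iXEN 9 (-6.78 and 0.000574) and by DESeq2 (0.00842). Per kb, Cdk6 made up 0.127% to 0.249% of the summed level of both kinases in MEF and at most 0.115% in the other libraries.

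Of the kinase inhibitors of the INK4 family, Cdkn2a, Cdkn2b and Cdkn2c were lower in iXEN cells in ESC medium than in MEF. Cdkn2a, whose counts pool the transcripts of p16 and ARF, was at 21.3, 39.5 and 30.7 CPM in MEF and at 7.20, 18, 18.3 and 7.91 CPM in iXEN 1, 2, 6 and 9. Cdkn2b was at 17.6, 32.4 and 26.4 CPM in MEF and at 3.04, 4.96, 4.34 and 3.33 CPM in the iXEN libraries. Cdkn2c was at 10.7, 9.78 and 12.3 CPM in MEF and at 2.63, 3.45, 1.6 and 3.23 CPM in iXEN 1, 2, 6 and 9. For each of the 3 genes every iXEN library lay below every MEF library. Cdkn2b fell by 2.68 (SE 0.30, edgeR adjusted p = 0.000181) and Cdkn2c fell by 1.99 (SE 0.34, adjusted p = 0.0016). Cdkn2a fell by 1.23 (SE 0.40, edgeR adjusted p = 0.0350), which did not hold without MEF 2 or 3 (0.128 and 0.0923), without iXEN 1 or 9 (0.0696 and 0.0691) or in a fit over all 17 libraries (0.215). XEN cells in ESC medium held more Cdkn2a, at 280, 39.4 and 96.0 CPM in XEN 1, 2 and 7, a log2 fold change of 2.17 against MEF (95% interval 0.48 to 3.87, edgeR adjusted p = 0.0657). It was called higher without XEN 2 (2.77, adjusted p = 0.0167) and by DESeq2 (0.0121). Without XEN 1, the library at 280 CPM with 7825 CPM of fibroblast markers, it was 1.18 (adjusted p = 0.124).

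In XEN medium the order of the group means of Cdkn2a was the opposite, at 145 CPM in iXEN and 39.4 CPM in XEN cells. It was at 22.7, 31.2 and 64.2 CPM in XEN 1, 2 and 7, and at 23.1, 263, 75.8 and 220 CPM in iXEN 1, 2, 6 and 9. These ranges overlapped. Against MEF the log2 fold change was 2.31 in iXEN cells (95% interval 0.42 to 4.19, edgeR adjusted p = 0.0625), called by DESeq2 (0.0162), by edgeR over all 17 libraries (0.0397) and without iXEN 1 (2.67, adjusted p = 0.0112). It was 1.86 without iXEN 2, 2.02 without iXEN 9 and 0.72 (adjusted p = 0.294) without both, which are the libraries with fibroblast transcripts. In XEN cells it was 0.36 (95% interval -0.69 to 1.40). Every iXEN library in XEN medium lay above every iXEN library in ESC medium, and between libraries of the same number, which were not shown to be pairs, the ratio was 3.21 for iXEN 1, 14.6 for iXEN 2, 4.13 for iXEN 6 and 27.8 for iXEN 9. Among genes tested in that comparison 11.8% did not overlap, and of the 8 members that passed the filter 1 did not, Cdkn2a. The log2 difference was 3.49 (95% interval 1.86 to 5.13), with an edgeR adjusted p of 0.0630 and an unadjusted p of 0.000833. DESeq2 called it (adjusted p = 7.75e-05), and so did edgeR over all 17 libraries (0.0449). Without iXEN 2 and 9 in XEN medium, whose fibroblast transcripts are given above, it was 1.92 (edgeR adjusted p = 0.120). For the 3 XEN numbers Cdkn2a was lower in XEN medium, 12.3-fold for XEN 1, 1.26-fold for XEN 2 and 1.5-fold for XEN 7 (log2 difference -1.85, edgeR adjusted p = 0.800; -0.80 without XEN 1 in ESC medium). The test of the difference between the cell types in their response to the medium gave a log2 value of 5.33 (95% interval 2.81 to 7.84, edgeR adjusted p = 0.221, unadjusted p = 0.000507), and DESeq2 called it (0.000363). Without the 3 libraries with most fibroblast transcripts it was 2.72 (edgeR adjusted p = 0.576).

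Cdkn2b stands beside Cdkn2a in the genome and its level followed that of Cdkn2a across libraries, as a description. Over the 14 endoderm libraries their levels had r = 0.876, and Cdkn2c, on the same chromosome but apart from that locus, had r = 0.820 with Cdkn2b and 0.691 with Cdkn2a. Cdkn2b was at 27.9, 5.70 and 25.8 CPM in XEN 1, 2 and 7 in ESC medium and at 7.73, 5.48 and 17.9 CPM in XEN medium. iXEN 1, 2, 6 and 9 held 1.51, 30.5, 7.55 and 26.1 CPM in XEN medium, so iXEN 1 was low and iXEN 2 and 9 reached the range of MEF. Against MEF in XEN medium Cdkn2b was at -1.31 in XEN cells (edgeR adjusted p = 0.0695), called lower by DESeq2 (0.0264) and without XEN 7 (-1.94, edgeR adjusted p = 0.00384), and at -0.57 in iXEN cells, called lower without iXEN 2 and 9 (-2.45, adjusted p = 0.0313). The ratio of Cdkn2a to Cdkn2b CPM was 1.16 to 1.22 in MEF and higher in all other libraries, 2.36 to 4.23 in iXEN and 3.72 to 10.0 in XEN cells in ESC medium, and 8.42 to 15.3 in iXEN and 2.94 to 5.70 in XEN cells in XEN medium. Cdkn2c was at 13.8, 1.83 and 5.84 CPM in XEN 1, 2 and 7 in ESC medium and at 3.00 to 4.65 CPM in XEN medium, where it fell against MEF (-1.61, SE 0.31, edgeR adjusted p = 0.00768), a call lost in the fit over all 17 libraries (0.117). iXEN cells in XEN medium held 0.906 to 10.8 CPM of it. The genes most like Cdkn2a over the 14 libraries were Tspo, a protein of the outer mitochondrial membrane (r = 0.916), and the secreted proteins Igfbp6 (0.901), Ltbp3 (0.881) and Emilin2 (0.880), followed by 1110051M20Rik (0.879) and, at rank 6, Cdkn2b. Tspo, Ltbp3 and Emilin2 were at 65.7, 216 and 89.2 CPM in MEF.

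The promoters of the locus are shown because its genes moved together while their ratio differed, and because counts by symbol cannot tell the starts of Cdkn2a apart. RefSeq's table (GRCm38.p6, a later build than that of the counts) gives 2 starts for Cdkn2a and 1 for Cdkn2b, all on the minus strand. The 250 bases before the start are chr4:89294620-89294869 for the outer start of Cdkn2a, which lies nearer to Cdkn2b, chr4:89282193-89282442 for its inner start and chr4:89311033-89311282 for Cdkn2b. Capitals mark the GC box GGGCGG on either strand.
Cdkn2a outer start: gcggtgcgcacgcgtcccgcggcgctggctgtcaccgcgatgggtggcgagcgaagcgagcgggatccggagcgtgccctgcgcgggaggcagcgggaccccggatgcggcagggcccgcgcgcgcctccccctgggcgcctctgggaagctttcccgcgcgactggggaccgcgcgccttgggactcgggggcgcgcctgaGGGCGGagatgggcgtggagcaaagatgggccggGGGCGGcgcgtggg
Cdkn2a inner start: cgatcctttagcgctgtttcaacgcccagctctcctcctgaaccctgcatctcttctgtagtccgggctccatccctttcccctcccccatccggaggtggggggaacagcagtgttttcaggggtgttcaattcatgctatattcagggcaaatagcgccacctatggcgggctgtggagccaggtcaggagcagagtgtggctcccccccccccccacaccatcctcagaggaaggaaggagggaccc
Cdkn2b: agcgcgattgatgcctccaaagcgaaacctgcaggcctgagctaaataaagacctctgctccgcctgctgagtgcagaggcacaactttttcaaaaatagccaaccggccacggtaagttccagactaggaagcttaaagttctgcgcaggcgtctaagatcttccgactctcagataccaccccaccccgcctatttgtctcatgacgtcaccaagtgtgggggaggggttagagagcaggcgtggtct
The outer Cdkn2a stretch held 2 GC boxes and was 78.4% G or C, the inner one held 0 at 60%, and that of Cdkn2b held 0 at 53.6%. A GC box is found in 32.7% of the 32851 promoter stretches of this length. Neither the E2F motifs TTTCGCGC and TTTGGCGC nor the AP-1 motif TGANTCA, searched on both strands, occurred in the 3 stretches. They are found in 0.256%, 0.417% and 6.75% of all stretches. Other forms of the E2F site were not searched for, and such a form, TTTCCCGC, lies unmarked in the outer Cdkn2a stretch. GC boxes were the only matches to the motifs searched, so none overlapped another of these. A match or its absence describes these letters only.

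The inhibitor p27 was called higher in 1 of the 4 comparisons with fibroblasts, that of XEN cells in XEN medium. Cdkn1b was at 56.5, 61.5 and 85.7 CPM in MEF and at 135, 106 and 106 CPM in XEN 1, 2 and 7 in XEN medium. It rose by 0.76 there (SE 0.22, edgeR adjusted p = 0.0295), which did not hold without MEF 1 or 2 (0.124 and 0.112), without XEN 1 (0.0642) or in a fit over all 17 libraries (0.195). In ESC medium XEN 1, 2 and 7 held 61.1, 120 and 35.1 CPM. iXEN 1, 2, 6 and 9 held 49.8, 113, 99.2 and 155 CPM in ESC medium and 106, 125, 140 and 61.4 CPM in XEN medium. Against MEF the log2 fold change was 0.62 for iXEN cells in ESC medium (95% interval -0.19 to 1.42) and 0.69 in XEN medium (-0.06 to 1.44). The first passed without iXEN 1 (0.85, edgeR adjusted p = 0.0296) and the second without iXEN 9 (0.88, adjusted p = 0.0404).

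**Figure D4:**
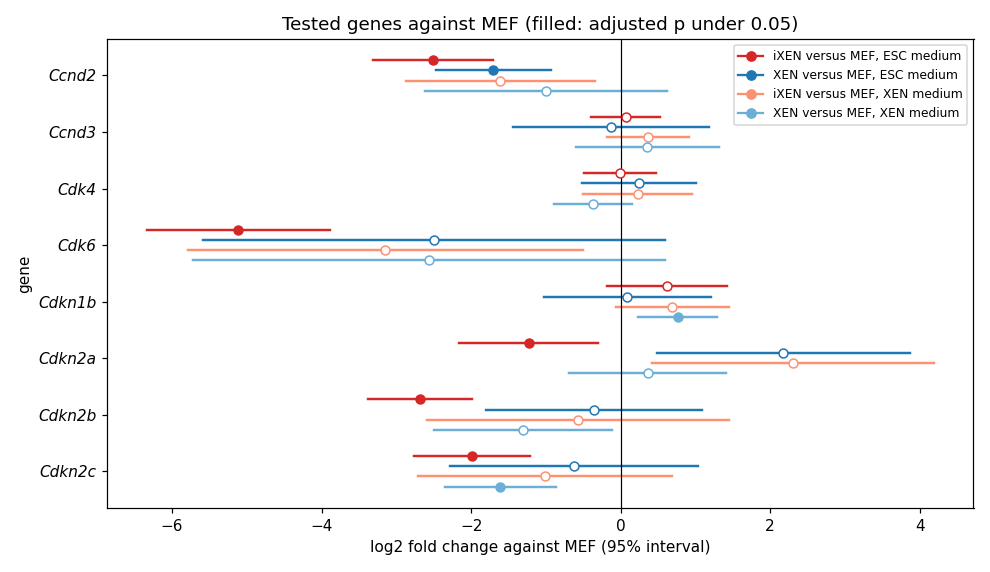
Log2 fold changes against MEF (horizontal axis, with 95% intervals) of the 8 genes tested, for iXEN and XEN cells in each medium; filled points have an edgeR adjusted p under 0.05. Of the 8 genes, 5 are filled for iXEN cells in ESC medium, 1 for XEN cells in ESC medium, 0 for iXEN and 2 for XEN cells in XEN medium.

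Counted over the 8 genes tested, 5 fell and 0 rose in iXEN cells in ESC medium against MEF, where 25.9% of all genes fell and 20.8% rose. The 5 were Ccnd2, Cdk6, Cdkn2a, Cdkn2b and Cdkn2c, of which Cdk6 passed the filter only through its reads in MEF. Of all 9 genes, 6 did not overlap with MEF in that comparison, against 54.5% of all genes tested, 2 in XEN cells in ESC medium (53.3%), 2 in iXEN cells in XEN medium (51.8%) and 4 in XEN cells in XEN medium (64.0%). Ccnd1, picked for its difference between iXEN and XEN cells, is among the 6 and among those of XEN cells in XEN medium. Cdk6, which passed the filter through MEF, is in each of these counts. Nothing is read from the counts. In XEN cells in ESC medium 1 fell and 0 rose (13.7% of all genes fell and 11.4% rose). In XEN cells in XEN medium 1 rose and 1 fell (23.0% of all genes rose and 24.5% fell), and without XEN 7 there were 6 calls, with 8965 genes called in all against 6830. In iXEN cells in XEN medium edgeR called 0 of the 8, with 3 at an unadjusted p under 0.05 and 3 called by DESeq2 (14.9% of all genes fell and 17.7% rose). Of all 14438 genes that edgeR tested there, 6629 had an unadjusted p under 0.05, so 3 of 8 is no larger a share at that threshold. DESeq2 called 6273 genes there. It was run without the filter on low counts, so its counts of genes are given here and below without a share. These 4 comparisons share the MEF libraries, and cell type, medium and passages cannot be told apart in them. The exchange of medium was tested for the 7 genes other than Ccnd1 that passed the filter, Cdk6 being too low. edgeR called 0 in XEN cells (0% of all genes called), with 1 at an unadjusted p under 0.05, against 746 of 13241 genes. DESeq2 called 0 of them and 89 genes in all. In iXEN cells edgeR called 0 as well (0% of all genes). At an unadjusted p under 0.05 were 2, Cdkn2a and Cdkn2b, against 3018 of 12920 genes. DESeq2 called 1 of the 7 and 1638 genes in all. The interaction of cell type and medium called 0 of 8 (0% of all genes), with the same 2 at an unadjusted p under 0.05, against 2131 of 14357 genes. DESeq2 called 1 of the 8 and 488 genes in all.

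Genes downstream of the kinases that changed were higher in the endoderm lines than in MEF. Of 18 E2F target genes of DNA replication, edgeR called 10 higher in iXEN and 6 in XEN cells kept in ESC medium. With XEN medium these counts were 12 and 16, and 0 fell in any of the 4 comparisons. Their median log2 fold changes were 0.95, 1.16, 1.52 and 1.59, while those of all genes tested lay between -0.03 and 0.06. Cdc6, which loads the replicative helicase, had a mean of 12.4 CPM in MEF. It rose in all 4 comparisons, to 105 CPM (log2 fold change 3.12, SE 0.53) for iXEN cells on ESC medium and to 135 CPM (3.45, SE 0.41) for XEN cells on XEN medium. Cdt1, its partner in loading, rose in all 4 comparisons, by 2.27 to 2.72. Ung, which removes uracil from DNA, rose from 5.24 CPM to 28.3 CPM (2.45, SE 0.38) in XEN cells on ESC medium and to 38.0 CPM (2.88, SE 0.39) in iXEN cells on XEN medium. Orc1, a subunit of the origin recognition complex, rose by 2.08 in iXEN cells on ESC medium and 2.39 in XEN cells on XEN medium. Of 12 genes of later cyclins, their kinases and activators tested, 6 rose in iXEN and 2 in XEN cells on ESC medium. On XEN medium 5 rose in iXEN and 8 in XEN cells, and 0 fell in any comparison. Of all genes tested, 20.8% rose in iXEN and 11.4% in XEN cells on ESC medium, and 17.7% and 23.0% on XEN medium. Cdk2, the kinase that follows CDK4 in the cycle, rose from 36.6 CPM to between 130 and 178 CPM in the 4 groups. Cdc25a, a phosphatase that activates CDK2, rose in all 4 comparisons, by 1.16 to 2.01, and Ccnb1, the mitotic cyclin B1, rose by 1.39 in iXEN cells on ESC medium and 1.93 in XEN cells on XEN medium.

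Of 16 RB and E2F genes, 6 rose and 1 fell in iXEN cells on ESC medium, and 2 rose and 0 fell in XEN cells on the same medium. On XEN medium 3 rose and 1 fell in iXEN cells, and 8 rose and 1 fell in XEN cells. Of all genes tested on ESC medium, 20.8% rose and 25.9% fell in iXEN cells, and 11.4% rose and 13.7% fell in XEN cells. On XEN medium 17.7% of all genes rose and 14.9% fell in iXEN cells, and 23.0% rose and 24.5% fell in XEN cells. Mybl2, a transcription factor that acts with the RB relatives at cell cycle genes, rose from 12.8 CPM to between 214 and 299 CPM. The RB relative Rbl2 was the gene that fell, from 31.0 CPM to 11.2 CPM in iXEN cells on ESC medium and, on XEN medium, to 4.38 CPM in iXEN and 5.87 CPM in XEN cells. In XEN cells on ESC medium it was at 6.09 CPM (edgeR adjusted p = 0.0827). Lin54, a DNA-binding subunit of the complex in which Mybl2 acts, rose by 1.62 (SE 0.37) in iXEN cells on ESC medium, and Lin9 of the same complex by 1.51 (SE 0.25) in XEN cells on XEN medium. Of the other 4 inhibitor genes, Cdkn1c, an imprinted relative of p27, was at 152 CPM in MEF and fell to 1.6 CPM in iXEN cells on ESC medium (-6.47, SE 0.94) and, on XEN medium, to 1.53 CPM in XEN cells (-6.63, SE 0.95). Cdkn1a, which encodes p21, fell from 282 to 130 CPM in XEN cells in XEN medium (-1.12, SE 0.23). Cdkn2d, the fourth INK4 gene, rose in XEN medium from 0.409 CPM to 1.91 CPM in iXEN and 2.24 CPM in XEN cells.

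Of 19 regulators of the INK4 locus, 5 rose and 2 fell in iXEN cells on ESC medium. On XEN medium 3 rose and 0 fell in iXEN cells, and 7 rose and 1 fell in XEN cells. In XEN cells in ESC medium edgeR called 0 of them, with 4 at an unadjusted p under 0.05 and 2 by DESeq2. In each of the 4 comparisons the share called was below that of all genes. Cbx7, a Polycomb protein known to repress Cdkn2a, had a mean of 2.32 CPM in MEF. It rose to 59.4 CPM (4.68, SE 0.22) in iXEN cells on ESC medium and to 23.7 CPM (3.34, SE 0.68) in XEN cells on XEN medium. It was at 14.2 CPM in XEN cells in ESC medium (adjusted p = 0.11) and 6.0 CPM in iXEN cells in XEN medium (adjusted p = 0.301). Tbx2, a repressor of the locus, fell by 3.84 in iXEN cells on ESC medium and fell by 2.72 in XEN cells on XEN medium. Its relative Tbx3 rose by 1.88 on XEN medium in both cell types, and Id1, an inhibitor of the activating ETS factors, fell from 111 CPM to 10.6 CPM in iXEN cells on ESC medium. Ezh2, the enzyme of Polycomb repression, rose by 1.33 (SE 0.39) in iXEN cells on XEN medium. Of 12 genes for the turnover of D cyclins and p27, 2 rose and 1 fell in iXEN cells on ESC medium, and 1 rose and 0 fell in XEN cells. On XEN medium 3 rose and 1 fell in iXEN cells, and 3 rose and 3 fell in XEN cells. In either direction edgeR called 46.7% of all genes in iXEN and 25.0% in XEN cells on ESC medium, and 32.6% and 47.5% on XEN medium. Cks1b, which helps to mark p27 for degradation, rose by 0.82 in iXEN cells on ESC medium and, on XEN medium, by 1.74 in iXEN and 1.36 in XEN cells. Cul1, the scaffold of the ligase that does so, rose in the same 3 comparisons, by 0.92 to 1.48. Between iXEN and XEN cells edgeR called 0 of the 81 genes of these lists tested in either medium (0% of all genes). At an unadjusted p under 0.05 were 10 in ESC medium and 0 in XEN medium, against 1770 of 12944 and 544 of 13263 genes. DESeq2 called 2 and 0 of them.

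**Figure D5:**
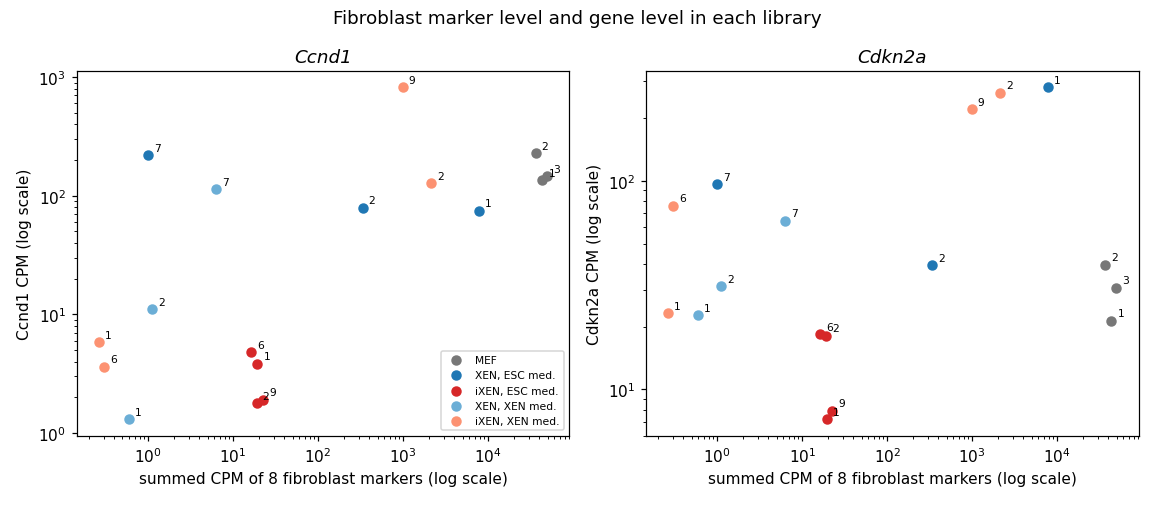
Level of Ccnd1 and Cdkn2a (vertical axes, CPM, log scale) against the summed CPM of 8 fibroblast markers (horizontal axes, log scale) in the 17 libraries, with the numbers of their labels. XEN 7 in ESC medium held 219 CPM of Ccnd1 at 1.0 CPM of the markers, and iXEN 6 in XEN medium 75.8 CPM of Cdkn2a at 0.301 CPM.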

How the data were processed

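Bulk RNA-seq of 17 libraries was analysed. The deposited files hold whole-number counts per gene and library for 24015 genes. Per the submitters' processing notes, the tools were FastQC 0.11.3, Trimmomatic 0.32, TopHat2 2.0.12 and HTSeq 0.6.1 with build mm9; the sources used here give neither their settings nor the annotation or strand setting. Without the strand setting, reads of Ccnd2, Ccnd3 and Cdk4 cannot be told apart from those of the antisense genes 9330179D12Rik, Bysl and Tspan31 that overlap them. Reads of Ccnd3 may also be shared with the pseudogene Ccnd3-ps. In GENCODE M21, antisense genes overlap Ccnd1 (LTO1) and Cdk6 (Gm17590 and Gm42435) as well, so the same limit holds there. The symbols LTO1, Gm17590 and Gm42435 are not among the genes listed. The 5 lines of the counter that name no gene held 20.8% to 33.1% of each file and were left out. TMM factors were 0.863 to 1.14, and 3 counts equal 0.0602 to 0.142 CPM.

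Each comparison was fitted to its own groups with edgeR 4.0.16 in R 4.3.3 (quasi-likelihood test, filterByExpr with a minimum count of 10 and a total of 15, Benjamini-Hochberg adjustment over all genes, threshold 0.05). SE is the log2 fold change over the root of F, and intervals are 95%. DESeq2 1.42.0, RLE size factors, library sizes alone, no filter, a fit over all libraries, the replicate block and leaving out each library were the alternatives; the libraries with fibroblast transcripts were left out as an alternative chosen after seeing the data. The fits were tested on simulated data. Levels per kb use union exon lengths of GENCODE M21, which approximate the authors' annotation. Likeness is Pearson's r of log2 CPM (prior count 2) over 14 libraries, for genes with a mean of at least 5 CPM; the first 5 genes are named. Members and gene lists were chosen with earlier results of these data known; the rule for pathway genes was to name the 3 with the largest log2 fold change among those called in a comparison, and those described are from these.

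No 2 libraries agreed within sampling noise. The series calls the libraries of a group biological replicates, and the p-values set a difference between groups against the spread between these libraries. The main fits for the medium used no pairing. As a check of pairing, deviations from the group means of same-numbered XEN libraries had r = 0.241, 0.377 and 0.635, each above the 0.1 taken as pairing, although XEN 2 in ESC medium had a higher r with XEN 1 in XEN medium (0.428). For iXEN cells r was 0.143, 0.186 and 0.124 for numbers 1, 2 and 6, also above 0.1, but -0.036 for number 9. iXEN 6 in ESC medium had a like r with iXEN 9 in XEN medium (0.125). Since number 9 fell short, pairing was not taken as shown for iXEN cells.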

Additional observations from a re-analysis of the deposited data

Results flagged for a closer look

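iXEN 9 in XEN medium, at 818 CPM of Ccnd1, lay far from the other 3 libraries of its group on the linear scale of CPM. This is a description of the gene chosen for its differences: of 18 groups of 4 libraries examined 1 was so found, and chance gives about 1 in 20. iXEN 2, at 127 CPM, was also well above iXEN 1 and 6, at 5.81 and 3.64 CPM. iXEN 9 also held 986 CPM over the 8 fibroblast markers and 60.2 CPM of Pou5f1, and their part in its Ccnd1 level was not tested.

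Cdkn2a was lower in XEN medium than in ESC medium for all 3 numbers of XEN cells and higher for all 4 of iXEN cells. It was flagged by a search of the 9 genes for this pattern, and the share of all genes with it was not counted. The log2 difference between libraries of the same number was -3.62 to -0.33 for XEN and 1.68 to 4.80 for iXEN cells, whose numbers were not shown to pair. Neither difference passed edgeR (adjusted p = 0.800 and 0.0630), nor did the test between them (0.221). The differences farthest from 0 involve XEN 1 in ESC medium and iXEN 2 and 9 in XEN medium, which held 7825, 2110 and 986 CPM of fibroblast markers. Without XEN 1 in ESC medium the fitted XEN difference was -0.80, without iXEN 2 and 9 in XEN medium the iXEN difference was 1.92, and without all 3 the test between them gave 2.72 (adjusted p = 0.576).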

How the results depend on the processing

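Libraries differ widely within groups of 3 or 4, and many calls rest on 1 of them. DESeq2 called 5850 genes and 2 members in XEN against MEF in ESC medium, 3 members in iXEN against MEF in XEN medium, 89 genes for the medium in XEN cells, 1638 genes and 1 member for the medium in iXEN cells, 530 and 137 genes between iXEN and XEN in ESC and XEN medium, and 488 genes and 1 member for the interaction; edgeR called 3507 genes and 1 member in the first, 0 members in the second, and 0 genes and 0 members in each of the others. One fit over all 17 libraries called 0 members in XEN against MEF in either medium, 1 in iXEN against MEF in XEN medium, and 330 genes with 1 member for the medium in iXEN cells. Without a filter, 5 genes were called between iXEN and XEN in ESC medium, and Cdk4 was at 0.018 in iXEN against MEF in ESC medium. With the libraries holding fibroblast transcripts left out, iXEN against MEF in XEN medium gave 7440 genes and 3 members, the medium in iXEN cells 1 gene, Cdk6 in the interaction -1.13, and Ccnd1 in iXEN against MEF in XEN medium -5.17 in place of 0.56. With the replicate block the interaction called 1 gene, and Cdkn2a was at 4.52 (adjusted p = 0.309); the block changed no call of a member. The causes of these differences were not tested.

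Leaving out 1 library at a time, the genes called were 372 to 6056 for XEN against MEF in ESC medium and 3985 to 8965 in XEN medium, 1842 to 5663 for iXEN against MEF in XEN medium, 0 to 416 for the medium in iXEN cells and 0 to 52 between iXEN and XEN in ESC medium. The members called were 0 to 2, 1 to 6 and 0 to 2 in the first 3 of these. Log2 values that changed sign were, against MEF in ESC medium, Ccnd3 (-0.35 to 0.40), Cdk4 (-0.056 to 0.52), Cdkn1b (-0.35 to 0.49) and Cdkn2b (-0.66 to 0.22) in XEN cells and Ccnd3 (-0.069 to 0.17) and Cdk4 (-0.13 to 0.092) in iXEN cells; in XEN medium, Ccnd3 (-0.049 to 0.68) and Cdkn2a (-0.17 to 0.65) in XEN cells and Ccnd1 (-1.85 without iXEN 9, to 0.97) in iXEN cells; for the medium, Ccnd2 in XEN cells (-0.11 to 1.15) and Cdkn1b in iXEN cells (-0.21 to 0.28); and for the interaction, Ccnd2 (-0.42 to 0.97), Ccnd3 (-0.56 to 0.24) and Cdk6 (-1.34 to 5.26). Between iXEN and XEN cells, where no member was tested, the fitted values of Ccnd3 (-0.23 to 0.47) and Cdk4 (-0.42 to 0.056) changed sign in ESC medium, and those of Ccnd2 (-1.23 to 0.20), Ccnd3 (-0.32 to 0.41), Cdk6 (-1.18 to 2.73), Cdkn1b (-0.22 to 0.11) and Cdkn2c (-0.089 to 0.91) in XEN medium.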
